A study of Drosophila melanogaster with 35 samples.

Results

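The genes described here are named for the proteins of the cytosolic ribosome of Drosophila melanogaster. They were chosen as protein-coding genes of the Ensembl annotation whose symbol starts with RpL, RpS or RpLP, which leaves out the mitochondrial mRp genes. This rule took 92 of 13986 protein-coding genes, 54 named for the large subunit, 4 RpLP genes included, and 38 for the small subunit. It also took 5 genes with names ending in -like, RpLP0-like among them, whose part in the ribosome was not checked. A gene was counted as bound in a peak list where a peak overlapped an exon on the gene's own strand by at least 1 nt, and peaks in small nucleolar RNAs (snoRNAs) within introns were kept apart.

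The data were peak lists from fractionated iCLIP, in which ultraviolet light fixes a protein to the RNA it touches before precipitation and sequencing. The protein was CLAMP, a zinc-finger protein known for its binding to GA-rich DNA and its part in dosage compensation of the male X chromosome, precipitated with a rabbit antibody from S2 cells, a male embryonic line, and Kc cells, a female embryonic line. Each line was split into chromatin, nucleoplasm and cytoplasm, with 4 CLAMP libraries per line and fraction and 2 libraries made without antibody, or 1 in Kc chromatin, and all 35 libraries came from cells crosslinked at 254 nm. The S2 lists held 1416 peaks in chromatin and 391 in nucleoplasm, the Kc lists 874 in chromatin, 546 in nucleoplasm and 8 in cytoplasm, and an S2 cytoplasm list was not analysed here. Each line and fraction analysed is represented by 1 list, which leaves no replicate error, and no test was run. Intervals in parentheses are Wilson 95% intervals, which treat genes or peaks as independent and cover counting error only. The lists hold neither read counts nor the amount of each RNA in a fraction, so more binding per molecule and more molecules of an abundant RNA cannot be told apart.

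Ribosomal proteins form the large subunit, which joins amino acids, and the small subunit, which reads the messenger RNA. Their genes are among the most strongly expressed in dividing cells, and their spliced mRNAs are short. Many of them also carry snoRNAs in their introns, which are cut out of the host pre-mRNA. Box C/D snoRNAs guide methylation of ribosomal RNA, and box H/ACA snoRNAs guide conversion of uridine to pseudouridine. In the annotation, 28 of the 92 genes hosted 74 of all 269 snoRNAs, 44 of them H/ACA and 30 C/D.

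Ribosomal protein mRNAs were bound mainly in S2 chromatin. There 23 of 92 genes had an exonic peak, which is 25% (17.3 to 34.7), beside 2.63% of all protein-coding genes and 2.48% (2.24 to 2.76) of those outside the set. In Kc chromatin 3 of 92 were bound, 3.26% (1.12 to 9.15), beside 0.343% of all protein-coding genes and 0.324% (0.242 to 0.433) outside the set. In Kc nucleoplasm 1 gene was bound, 1.09% (0.192 to 5.9), beside 0.35% of all protein-coding genes. No gene of the set was bound in S2 nucleoplasm, where an interval of 0 to 4.01% stood beside 0.0644% of all protein-coding genes. The 8 peaks of Kc cytoplasm touched no exon of any protein-coding gene, so the share there was 0 for the set and 0 for the background.

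**Figure D1:**
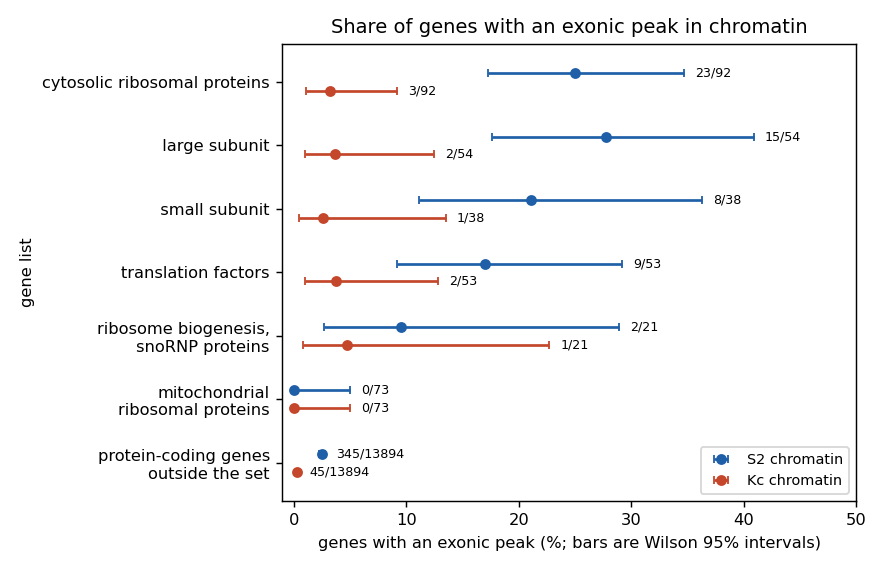
Share of genes with an exonic peak (x axis, percent) in S2 and Kc chromatin for each gene list (y axis), with points for the share, bars for Wilson 95% intervals and the count beside each point. The set stands at 25% in S2 chromatin and 3.26% in Kc chromatin, and mitochondrial ribosomal protein genes stand at 0 in both.

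Coding genes as a whole had fewer peaks in Kc chromatin. Of the coding genes bound, ribosomal protein genes made up 23 of 368 in S2, which is 6.25% (4.2 to 9.2), and 3 of 48 in Kc, which is also 6.25% (2.15 to 16.8). In peaks, S2 chromatin held 32 in exons of the set and Kc chromatin 3, a ratio of 10.7. For exons of other coding genes the numbers were 391 and 51, a ratio of 7.67, and for all peaks of the lists the ratio was 1.62. The exonic peaks of the set were 7.57% (5.41 to 10.5) of all coding-exon peaks in S2 chromatin and 5.56% (1.91 to 15.1) in Kc chromatin, while its exons made up 0.26% of annotated coding-gene exon length. Per kb of exon, S2 chromatin held 0.362 peaks in the set and 0.0115 in other coding genes, and Kc chromatin 0.0339 and 0.0015. The genes of the set were short, with a median exon length of 901 nt beside 1748 nt in other coding genes. Among bound genes of S2 chromatin the medians were 960 nt in the set and 3171 nt outside it.

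Across all 5 lists 26 of the 92 genes were bound, 17 of the large and 9 of the small subunit, and 66 were bound in none. The share of all protein-coding genes bound in any of the 5 lists is not given here, so only the shares per list can be compared. In S2 chromatin the share was 27.8% of the large subunit genes (15 of 54, 17.6 to 40.9) and 21.1% of the small (8 of 38, 11.1 to 36.3), with intervals that overlap widely. In Kc chromatin 2 large and 1 small subunit genes were bound. Of the 14 X-linked genes, 4 were bound in S2 chromatin, 28.6% (11.7 to 54.6), and of the 78 autosomal genes 19, 24.4% (16.2 to 34.9). Those 4 were RpL17, RpL37-1, RpS10b and RpS14a. None of the 5 genes with names ending in -like was bound in any list.

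**Figure D2:**
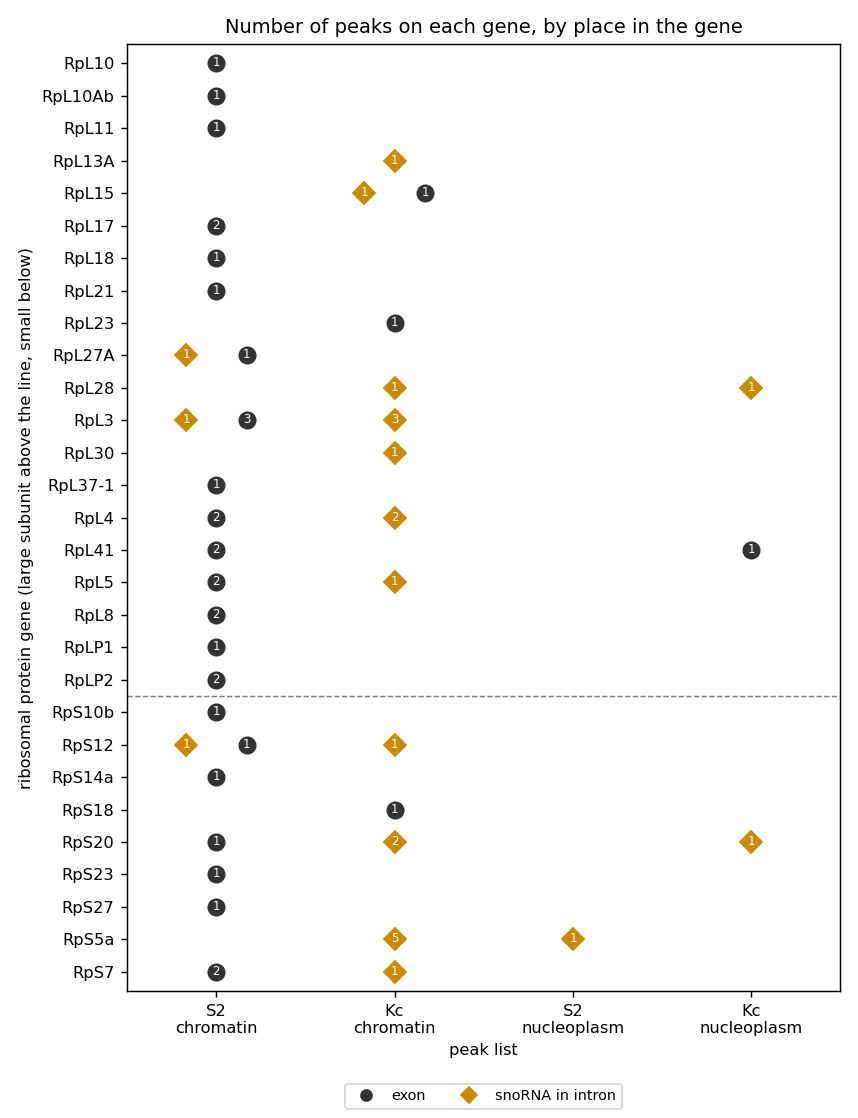
Number of peaks (digit in each marker) on the named ribosomal protein genes with a peak (y axis) in each list (x axis), with circles for exons and diamonds for snoRNAs in introns; a peak of RpL3 that lies in both an exon and a snoRNA is drawn as exonic. Circles fill the S2 chromatin column, and diamonds the Kc chromatin column.

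On the large subunit, the acidic stalk that recruits translation factors was represented by RpLP1 and RpLP2. RpLP1 had 1 coding-sequence (CDS) peak of 22 nt in S2 chromatin. RpLP2, a gene of 1 exon, had a peak of 34 nt in the 5' UTR (chr2R:16586162-16586195) and one of 27 nt in the CDS (chr2R:16586415-16586441), 219 nt apart. RpL5 and RpL11 encode the proteins that bind the 5S rRNA before it joins the ribosome. RpL5 had CDS peaks of 70 nt (chr2L:22534904-22534973) and 23 nt (chr2L:22535867-22535889). The RpL11 peak was the widest of the set, 119 nt at chr2R:19442721-19442839, with 59 nt in an exon and 60 nt in the neighbouring intron. It was the only exonic peak of the set in S2 chromatin that reached outside exons.

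Among the large subunit core proteins, RpL3, which reaches toward the site where peptide bonds form, had CDS peaks at chr3R:11224502-11224531 (30 nt) and chr3R:11224680-11224733 (54 nt), both in the last of 6 exons. Another RpL3 peak of 43 nt (chr3R:11222879-11222921) lay within the snoRNA Me18S-A425 and touched an exon of a non-canonical transcript only, so it is a snoRNA peak as well. RpL4, a protein that lines the exit tunnel, had CDS peaks of 24 nt each at chr3R:27923420-27923443 and chr3R:27923547-27923570, 103 nt apart in the third exon. RpL8, a core protein beside the site of peptide bond formation, had a 5' UTR peak of 42 nt (chr3L:2587463-2587504) and a CDS peak of 70 nt whose midpoint lay 33 nt after the start codon (chr3L:2587752-2587821). RpL17, which sits at the exit tunnel, had CDS peaks of 60 nt (chrX:6741921-6741980) and 25 nt (chrX:6742153-6742177), 172 nt apart in the last exon. RpL10, needed for the last steps of subunit maturation, had 1 CDS peak.

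The remaining large subunit genes had 1 exonic peak each in S2 chromatin, apart from RpL41. The exonic peaks of RpL21, RpL27A (39 nt at chr2L:4457877-4457915) and RpL10Ab lay in the CDS, that of RpL18 in the 3' UTR, centred 34 nt before the transcript end, and that of RpL37-1 in the 5' UTR. RpL10Ab encodes the protein of the mobile stalk that the leaving transfer RNA passes. RpL41 encodes a peptide from a CDS of only 78 nt. It had 3' UTR peaks at chr2R:24903470-24903501 (32 nt) and chr2R:24903704-24903741 (38 nt), the latter centred 1 nt past the stop codon.

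RpL41 was the single gene bound in more than 1 list. Its Kc nucleoplasm peak of 23 nt at chr2R:24903751-24903773 lay in the CDS of the same exon as the S2 chromatin peak at the stop codon and overlapped neither S2 peak. As a share of each list, RpL41 was 1 of 23 bound genes in S2 chromatin and 1 of 1 in Kc nucleoplasm.

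On the small subunit, RpS7 had the most exonic sequence under peaks. A peak of 113 nt (chr3R:30206585-30206697) straddled the end of its CDS and one of 64 nt (chr3R:30208567-30208630) was centred 59 nt after the start codon. RpS23, a protein of the decoding centre, had a 3' UTR peak of 22 nt. RpS12, a protein of the small subunit head that takes part in cell competition in Drosophila, had a CDS peak of 31 nt at chr3L:13024564-13024594. RpS20, also of the head, had a 3' UTR peak of 22 nt at chr3R:20823267-20823288. RpS14a, a protein of the platform beside the leaving mRNA, had 1 CDS peak of 29 nt. RpS10b, a head protein near the mRNA entry, and RpS27 had 1 peak each in the 3' UTR, of 32 and 42 nt. In all, 8 genes had more than 1 exonic peak in S2 chromatin, of which RpS7 was the only one of the small subunit. The 345 bound coding genes outside the set held 391 peaks there, and how many had more than 1 is not given here.

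In Kc chromatin 3 genes were bound. RpS18, a head protein near the transfer RNA that holds the growing chain, had a CDS peak of 44 nt (chr2R:20264634-20264677). RpL15, a large subunit core protein, had a CDS peak of 36 nt (chr3L:27268281-27268316). RpL23, which contributes to the contact between the subunits, had a peak of 89 nt at chr2R:22854402-22854490, of which 22 nt were in an exon and 67 nt in the intron. Exonic peaks in both chromatin lists were found for 0 of the 23 genes bound in S2 and the 3 bound in Kc, and for 14 other coding genes, 4.06% of 345 in S2 and 31.1% of 45 in Kc. With 3 genes in Kc, nothing can be read from the 0. Some of the bound genes have a close copy in the genome, and the copies RpS14b, RpS10a, RpL37-2 and RpL10Aa had 0 peaks. The sources used here do not say how reads that match both copies were placed.

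**Figure D3:**
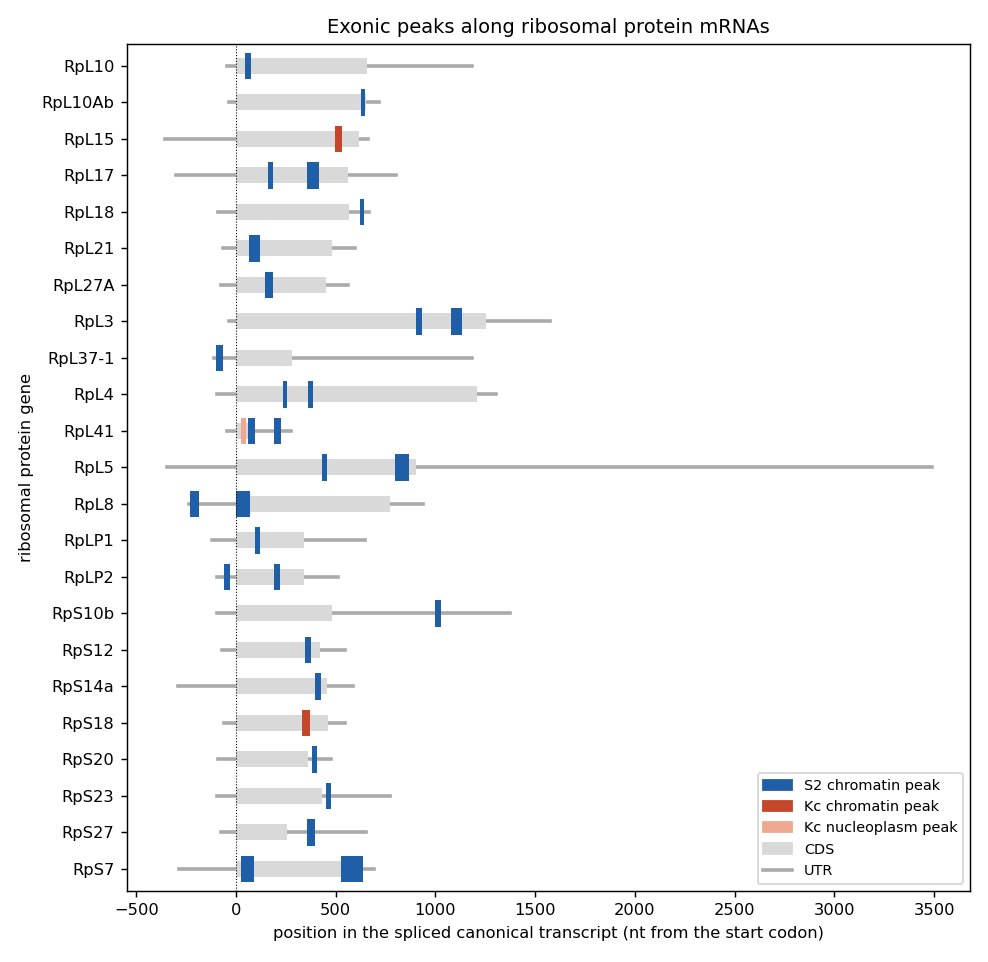
Exonic peaks (coloured boxes, drawn at their width) along the spliced canonical transcript of the named bound genes (y axis), in nt from the start codon (x axis), with grey boxes for the CDS and grey lines for UTRs; the peaks of RpL11 and RpL23 centred in introns and the RpL3 peak off the canonical transcript are left out. Peaks lie along the whole transcript, and the Kc nucleoplasm peak of RpL41 lies just before an S2 chromatin peak.

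Most exonic peaks of the set fell in the CDS. By midpoint, 20 of 32 in S2 chromatin were in the CDS, 62.5% (45.3 to 77.1), 8 in the 3' UTR, 25% (13.3 to 42.1), 3 in the 5' UTR, 9.38% (3.24 to 24.2), and that of RpL11 was intronic. The 3' UTR count includes the RpL3 peak within Me18S-A425, which is off the canonical transcript. Without peaks shared with another gene, 20 of 31 were in the CDS, 64.5%, and 7 in the 3' UTR, 22.6%. Peaks in other coding genes were 51.2% CDS, 39.6% 3' UTR and 8.18% 5' UTR, within the intervals of the set for each part. The canonical transcripts of the 23 bound genes were 52.3% CDS, 36.1% 3' UTR and 11.5% 5' UTR by length, also within those intervals. Along the 30 peaks that could be placed on canonical transcripts, midpoints ran from 2.39% to 95.5% of the transcript length with a median of 40.5%. Cut into parts of equal length, the start of the transcripts held 10 peaks, the middle 11 and the end 9. The last exon held 19 of the 30, and last exons made up 62.7% of these transcripts.

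Nearly all exonic peaks stayed inside exons. Of the 32 peaks in S2 chromatin, 31 were wholly within exons, 96.9%, beside 383 of 391 peaks (98%) in other coding genes. Peak width was like that elsewhere, with a median of 32.5 nt (21 to 119) in the set and 32 nt in other coding genes. Of the 32 peaks, 11 were under 30 nt wide, and of the other 391 peaks 158 were.

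In S2 chromatin 35 peaks lay in ribosomal protein genes on the sense strand, of which 32 touched an exon, 91.4% (77.6 to 97), and 3 lay in intronic snoRNAs. The 32 include 1 peak, that of RpL3 within Me18S-A425, that also lies in a snoRNA. In Kc chromatin 23 peaks lay in these genes, of which 3 touched an exon, 13% (4.54 to 32.1), 19 lay in intronic snoRNAs, 82.6% (62.9 to 93), and 1 lay elsewhere in an intron. S2 nucleoplasm had 1 peak in these genes, in a snoRNA, and Kc nucleoplasm had 3, 2 of them in snoRNAs. No list had a peak antisense to a gene of the set. Within other coding genes, peaks that touched an exon were 391 of 503 in S2 chromatin, 77.7% (73.9 to 81.2), and 51 of 103 in Kc chromatin, 49.5% (40.1 to 59), so a lower exonic share in Kc was not limited to the set. Peaks in intronic snoRNAs were 10 of the 503, 1.99% (1.08 to 3.62), and 18 of the 103, 17.5% (11.3 to 25.9). The 92 genes of the set hold 74 snoRNAs, while 195 lie outside it, beside 13894 other coding genes. These shares were not adjusted for that difference.

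**Figure D4:**
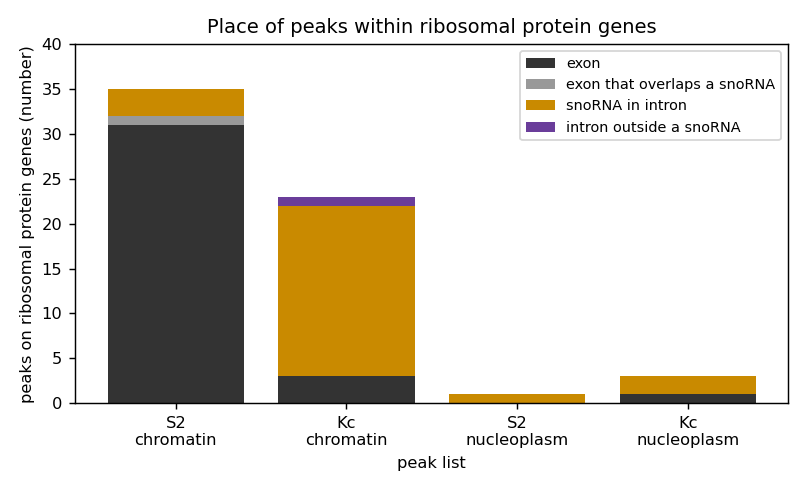
Number of peaks on ribosomal protein genes (y axis) in each list (x axis), stacked by place in the gene. The S2 chromatin bar is 32 exonic peaks of 35, of which 1 also lies in a snoRNA, and the Kc chromatin bar 19 snoRNA peaks of 23.

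More snoRNAs hosted by ribosomal protein genes had a peak in the Kc than in the S2 chromatin list. In Kc chromatin 14 of 74 had a peak, 18.9% (11.6 to 29.3), beside 16% of all annotated snoRNAs and 14.9% (10.6 to 20.5) of the 195 outside the set. In S2 chromatin 4 of 74 had one, 5.41% (2.12 to 13.1), beside 13.4% of all snoRNAs and 16.4% (11.9 to 22.2) of those outside the set. As a share of the snoRNAs with a peak, the hosted ones were 14 of 43 in Kc, 32.6% (20.5 to 47.5), and 4 of 36 in S2, 11.1% (4.41 to 25.3). Peaks in snoRNAs outside the set were close in number, 34 in S2 and 32 in Kc, while those in hosted snoRNAs were 4 and 19. S2 nucleoplasm had 1 hosted snoRNA with a peak beside 1.12% of all snoRNAs, Kc nucleoplasm 2 beside 2.97%, and Kc cytoplasm 0 beside 0.

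The hosted snoRNAs with a peak in S2 chromatin were all of the C/D class, and those in Kc chromatin were of both. Of the 44 hosted H/ACA snoRNAs, 0 had a peak in S2 chromatin (0 to 8.03%) and 8 in Kc chromatin, 18.2% (9.51 to 32). Of the 30 hosted C/D snoRNAs, 4 had a peak in S2 chromatin, 13.3% (5.31 to 29.7), and 6 in Kc chromatin, 20% (9.51 to 37.3). Among snoRNAs outside the set, H/ACA RNAs with a peak numbered 6 of 76 in S2 and 16 of 76 in Kc. C/D RNAs with a peak there numbered 22 of 89 and 11 of 89. The rest of the 195 snoRNAs outside the set have no class in their name and are in neither count.

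The Kc chromatin peaks came from 11 of the 28 host genes, 39.3% (23.6 to 57.6). RpS5a, a head protein by the path of the leaving mRNA, hosts 14 snoRNAs and had 5 peaks in 3 of them, Psi18S-1854a, Psi28S-1135e and Psi28S-1135f. RpL3 had 3 peaks in Psi28S-291 and Me28S-G2017. RpL4 had 2 peaks in Or-aca3 and RpS20 2 in Psi18S-1295. RpL5, RpS7, RpS12, RpL13A, RpL15, RpL28 and RpL30 had 1 snoRNA peak each. Of these, RpL30 encodes a protein known in yeast to repress the splicing of its own pre-mRNA. RpL15 was the only one of the 11 that also had an exonic peak in Kc chromatin. In S2 chromatin the hosts with a snoRNA peak were RpL3, RpL27A and RpS12, and all 3 also had exonic peaks there.

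Several host genes had snoRNA peaks in Kc chromatin and exonic peaks in S2 chromatin. Of the 11 Kc hosts, 6 had exonic peaks in S2 chromatin, namely RpL3, RpL4, RpL5, RpS7, RpS12 and RpS20. With peaks of any kind counted, 23 genes had one in S2 chromatin, 14 in Kc chromatin and 7 in both, those 6 among them. Such counts are not given here for other coding genes, so nothing about the set can be read from the 7. Of the 28 hosts, 11 had an exonic peak in S2 chromatin, 39.3% (23.6 to 57.6), and of the 64 genes that host no snoRNA 12, 18.8% (11.1 to 30). These intervals overlap. In Kc chromatin the shares were 3.57% (1 of 28, 0.633 to 17.7) and 3.12% (2 of 64, 0.861 to 10.7). Over all lists 30 of the 92 genes had a peak of some kind and 62 had none, again without a count over other coding genes.

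**Figure D5:**
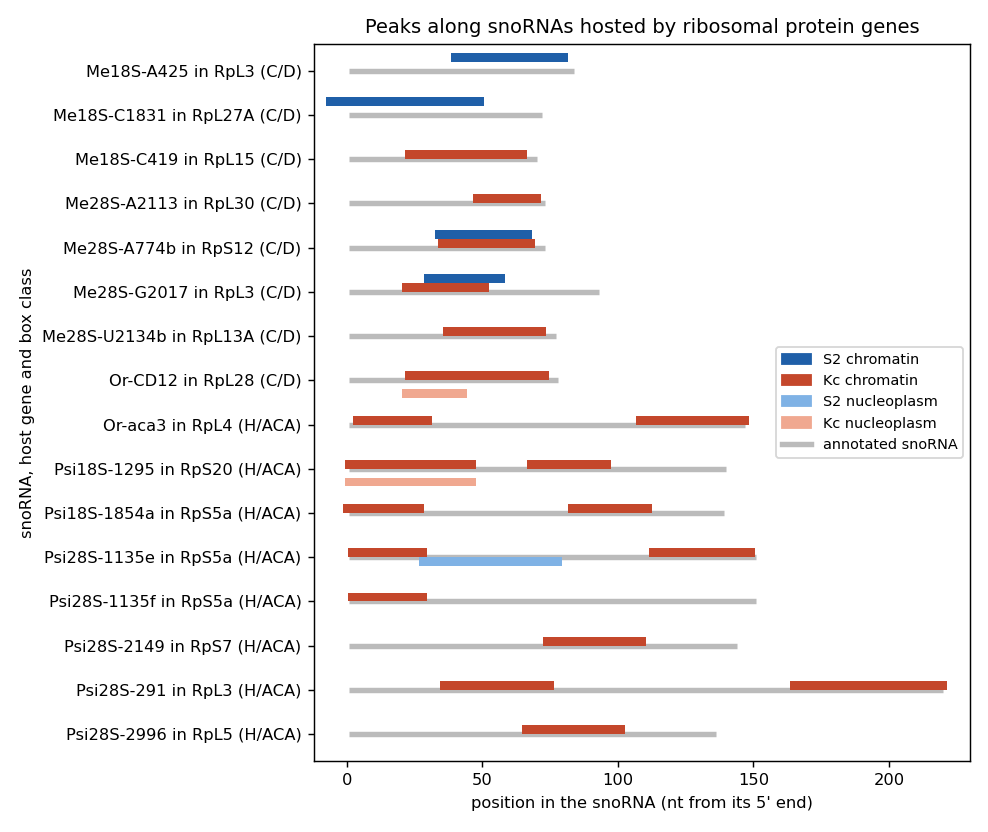
Peaks (coloured bars, by list) along each hosted snoRNA with a peak (y axis, with host gene and box class), in nt from its annotated 5' end (x axis), with a grey line for the annotated snoRNA. In Kc chromatin 5 H/ACA snoRNAs carry a peak pair, and the peaks of Me28S-A774b in S2 and Kc chromatin share 35 of 36 nt.

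In 5 cases peaks of different lists overlapped in a hosted snoRNA, by 3 to 48 nt. In Me28S-A774b, a C/D snoRNA in RpS12, the S2 chromatin peak at chr3L:13023612-13023647 and the Kc chromatin peak at chr3L:13023613-13023648 shared 35 of 36 nt. In Me28S-G2017 in RpL3, the S2 peak at chr3R:11224336-11224365 and the Kc peak at chr3R:11224328-11224359 shared 24 nt. These were the only hosted snoRNAs with a peak in both chromatin lists, 2 of 4 in S2 and 2 of 14 in Kc. Outside the set, 10 snoRNAs had a peak in both lists, of 32 in S2 and 29 in Kc. In Psi18S-1295 in RpS20, Kc chromatin and Kc nucleoplasm had the same peak of 48 nt at chr3R:20822609-20822656. In Or-CD12 in RpL28, the Kc chromatin peak (chr3L:3221354-3221406) and the Kc nucleoplasm peak (chr3L:3221384-3221407) shared 23 nt. The single S2 nucleoplasm peak of the set, chrX:17145802-17145854 in Psi28S-1135e, shared 3 nt with a Kc chromatin peak.

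H/ACA snoRNAs fold into a pair of hairpins, one on each side of a hinge, and 5 of the 8 hosted ones with a peak in Kc chromatin carried 2 peaks. Of the 16 H/ACA snoRNAs outside the set with a Kc chromatin peak, 2 carried more than 1. In Or-aca3, of 147 nt, the midpoints lay at nt 17 and 127. In Psi28S-1135e, of 151 nt, they lay at nt 15 and 131, and in Psi18S-1854a, of 139 nt, at nt 14 and 97. In Psi18S-1295, of 140 nt, they lay at nt 23 and 82, and in Psi28S-291, of 220 nt, at nt 55 and 192. The spacing of the midpoints ran from 59 nt in Psi18S-1295 to 137 nt in Psi28S-291. Psi28S-1135f, which shares its target name with Psi28S-1135e in the same host, had its only peak at nt 1 to 29, as did the first peak of Psi28S-1135e. The placing of reads that match both is likewise not stated. The other H/ACA snoRNAs with a peak, Psi28S-2149 in RpS7 and Psi28S-2996 in RpL5, had a single peak of 38 nt with midpoints at nt 92 and 84.

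Hosted C/D snoRNAs differed in where along them the peak lay. In Kc chromatin 5 of the 6 peaks in hosted C/D snoRNAs ended within 5 nt of the annotated 3' end, those in Me18S-C419 (RpL15), Me28S-A2113 (RpL30), Me28S-A774b (RpS12), Me28S-U2134b (RpL13A) and Or-CD12 (RpL28), and that in Me28S-G2017 did not. In S2 chromatin 2 of 4 did so, in Me18S-A425 and Me28S-A774b, while the peak of Me18S-C1831 in RpL27A reached 8 nt past the annotated 5' end. The Kc nucleoplasm peak of Or-CD12 ended 34 nt before the 3' end. Outside the set, 5 of 12 C/D peaks in Kc chromatin and 10 of 23 in S2 chromatin ended within 5 nt of the 3' end. The distance of 5 nt was chosen after the values were seen.

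Other genes of the translation pathway were counted beside all protein-coding genes, of which 2.63% were bound in S2 and 0.343% in Kc chromatin. Mitochondrial ribosomal protein genes, which encode a separate ribosome, were bound in 0 of 73 cases in either chromatin list (0 to 5%). That interval holds the share of all protein-coding genes in both lists. Of 53 translation factor genes, 9 were bound in S2 chromatin, 17% (9.2 to 29.2), and 2 in Kc chromatin, 3.77% (1.04 to 12.8). The poly(A)-binding protein gene pAbp had 7 exonic peaks in S2 and 1 in Kc chromatin, the elongation factor genes eEF1alpha1 and eEF1beta had 2 and 1 in S2 and 0 in Kc, and the initiation factor gene eIF3c had 1 in each. Of 21 genes of ribosome biogenesis and snoRNP proteins, 2 were bound in S2 chromatin, 9.52% (2.65 to 28.9). They were Nop60B, the pseudouridine synthase that H/ACA snoRNAs guide, and Fib, the methyltransferase that C/D snoRNAs guide. Nop60B was also the 1 gene of that list bound in Kc chromatin, 4.76% (0.846 to 22.7), with 2 peaks. The ribosomal gene sta and the ribosome-associated gene Rack1, whose symbols fall outside the rule, had no exonic peak in either chromatin list. Neither did the 7 snoRNA host genes of the Uhg family, with a wide interval of 0 to 35.4%.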

How the data were processed

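Libraries with 4 nt barcodes went through 31 PCR cycles and peaks were called within the Galaxy CLIP-Explorer workflow, per the labels' protocols. The submitters' processing notes name STAR 2.5.2b-2, cutadapt 3.5, UMI-tools and FastQC, and build dm6. Not given in the sources used here were the peak caller, its threshold and which libraries entered each list. The labels name a peak list for every CLAMP library, apart from 1 of the 4 in Kc nucleoplasm. The lists analysed were matched to their groups by these names. Labels of some libraries made without antibody name a list too. The deposited lists give coordinates, strand and a score, which was 0 in every peak and was not used. They give no read counts, so depth is unknown. No control peak list was used, so no background from libraries without antibody stands beside the peaks.

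Overlaps with Ensembl release 115 genes were computed in Python 3.11.15 (scipy 1.17.1, numpy 2.4.6), and matplotlib 3.10.9 drew the plots. The overlap step was tested on simulated data. Coordinates are 1-based on dm6. The part of a gene was read at the peak midpoint, with 5' UTR before CDS before 3' UTR over all transcripts of the gene. A hosted snoRNA lies inside a gene of the set on its strand, and box classes come from snoRNA names. Every gene of the set with an exonic peak is named, apart from 1 that is counted but not reported here, with coordinates for those with more than 1 peak, in more than 1 list, in nucleoplasm or with a bound snoRNA, and up to 4 genes of each other list. Of the symbols in those lists, 5 were not found in the annotation. The set, the lists and the alternatives were chosen with earlier results of these data known. Sequences and motifs under peaks are not reported here.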

Additional observations from a re-analysis of the deposited data

How the results depend on the processing

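Each count was recomputed with peaks of at least 30 nt, with at least 50% of the peak in the feature, without strand, without peaks shared with another gene, with touching peaks merged, over whole gene bodies, without genes named -like, and with CDS read before UTRs, as far as each applied. Of 113 recomputed values, 104 stayed within 1.5 times the reported count or within the interval of a share. The 104 include the counts of Kc cytoplasm, which were 0 under every setting. They also include the counts without genes named -like, none of which was bound. Shares of genes outside the set were not recomputed. The 3 settings for hosted snoRNAs were added after the data were seen. With peaks of at least 30 nt, exonic peaks in S2 chromatin fell from 32 to 21, small subunit genes there from 8 to 5, genes and peaks in Kc nucleoplasm from 1 to 0 each, and hosted snoRNAs in Kc nucleoplasm from 2 to 1, while bound genes in S2 chromatin were 16 and hosted snoRNAs in Kc chromatin 12. Over whole gene bodies, genes with a peak rose from 3 to 14 in Kc chromatin. They rose from 0 to 1 in S2 nucleoplasm and from 1 to 3 in Kc nucleoplasm, and stayed at 23 in S2 chromatin. Peaks in introns are then counted, all in snoRNAs apart from 1 in Kc chromatin. With at least 50% of the peak in an exon, large subunit genes in Kc chromatin fell from 2 to 1, which left out RpL23. No paired analysis was possible because each line and fraction analysed has 1 list and no test was run. With unknown depth, a gene without a peak may be bound below the limit of detection.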
